A study of Drosophila melanogaster with 3 samples.

Results

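The regions described here are the peaks of a ChIP-seq (chromatin immunoprecipitation with sequencing) experiment on the fly protein CG12391 whose summits lay in a 5′ UTR but away from any promoter. A summit is the position of highest signal within a peak. A pooled peak was kept when its summit was over 500 bp from the nearest transcription start site (TSS) of any gene and fell inside a 5′ UTR of at least 1 transcript. The rule kept 267 of the 30000 pooled peaks, or 0.89%, in the 5′ UTRs of 229 genes. Another 1947 pooled summits lay in a 5′ UTR within 500 bp of a TSS and were counted as promoter peaks.

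The embryos were whole *Drosophila melanogaster* embryos of both sexes, collected over 0 to 24 h. They came from a transgenic line that stably carries CG12391 fused to GFP at its C terminus, and chromatin was precipitated through the tag with an anti-GFP antibody. There were 3 biological replicates of this 1 group, and the 5 deposited peak lists comprised 1 for each replicate, 1 for the pooled replicates and 1 thresholded by the irreproducible discovery rate (IDR), a measure meant to keep peaks that replicates rank alike. The lists share their alignments and, per the deposited file lists, 1 control, so the pooled list is not independent of the replicates. The labels give no untagged or second condition, and a whole-embryo sample over this age range averages all tissues and stages. Read depth is unknown.

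A 5′ UTR is the transcribed stretch between the TSS and the start codon. In most genes it is short and lies under the promoter, but some regulatory genes have a long leader, often split by an intron, so that DNA far downstream of the start can still be 5′ UTR. Long leaders are known for upstream open reading frames and internal ribosome entry, as in the hormone and insulin pathways of flies, and the DNA beneath them can hold enhancers or alternative promoters. CG12391 is assayed here as a transcription factor, so a peak marks tagged protein on the DNA of the leader and carries no information on the RNA made from it.

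The sequences below are the 30 bases around the summit for 6 of the 20 strongest peaks, chosen as the windows with the most and the fewest A and T among those on arms 2L, 3L, 3R and X. They come from the Release 6 assembly, which shares its coordinates with dm6, and are written 5′ to 3′ on the strand of the host gene, with runs of at least 4 A or T in capitals. The first 4 windows hold 23 to 26 A or T among the 30 bases, and the last 2 hold 11 each.
dos (chr3L:2590567-2590596, plus strand): AAAAgtatgtttgcTTATATTATTAAATAT
CG5966 (chrX:5989559-5989588, plus strand): aagTTAAAgATTAgAATAAATAcaagATAT
CG15247 (chrX:9876124-9876153, minus strand): aaaggcaaacAAATAAAATcAAATctacat
Unr (chr3L:8440918-8440947, minus strand): cctgAAAAgcTTTAATTTAATTAcgAATTT
eas (chrX:16279562-16279591, plus strand): aaacttagccaccctctcgctccggccctg
JIL-1 (chr3L:11092344-11092373, minus strand): tcttccccctccccatccagatccacccac

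The next 7 windows show the word GAGAG, which the GAGA factor binds and which was more frequent under these summits than under other summits (values below). The first 5 are those of the strongest peaks holding it on the same arms, and the last 2 belong to hosts with at least 3 peaks. Each is the match nearest the summit, and all letters of GAGAG or its reverse complement CTCTC are in capitals.
CG5966 (chrX:5989595-5989624, plus strand): tttatagagtaaGAGAGtagagtaattgga
eas (chrX:16279563-16279592, plus strand): aacttagccaccCTCTCgctccggccctgt
DCP2 (chr3L:15825686-15825715, minus strand): tggtgcagacaGAGAGAGacgcgaatgtga
Ssdp (chr3R:18198831-18198860, minus strand): cagcagcagcagcCTCTCgaattgtgtgtt
raskol (chrX:17739171-17739200, plus strand): tgcgtgtgctccCTCTCTCtgtctctttct
baz (chrX:17178788-17178817, plus strand): cgcgatcttgcgCTCTCTCTCTCgctcttt
ftz-f1 (chr3L:18800543-18800572, minus strand): gaaagagctttcgGAGAGcGAGAGcaaaag

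Peaks in distant 5′ UTRs were mostly weak, with a small strong minority. The signal value, the authors' own measure of peak strength, had a median of 83.6 over the 267 peaks, against 112.3 over all pooled peaks. Its lower and upper quartiles in distant 5′ UTRs were 62.0 and 141.1, and it ranged from 49.0 to 1415. The median was 59.0 in coding exons, 70.0 in 3′ UTRs, 99.3 between genes, 99.97 in introns and 191.3 at promoters. Distant 5′ UTRs thus lay above coding exons and 3′ UTRs and below introns.

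The IDR-thresholded list consisted of the pooled peaks of highest signal, down to 227.2, so a share of peaks in it is a share above that signal. It held 34 of the 267 distant 5′ UTR peaks, or 12.7% (95% exact binomial interval 8.98% to 17.3%, counting error only), against 28.4% of all pooled peaks. The share was 0.851% in coding exons, 9.05% in 3′ UTRs, 22.2% between genes, 22.8% in introns, 25.4% in other exons and 44.3% at promoters. The weakest of the 34 had a signal of 227.8, and the strongest peak left out, in KrT95D, had 223.2. Peaks share neighbours and sequence and are not replicates, so no test was run over them.

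**Figure D1:**
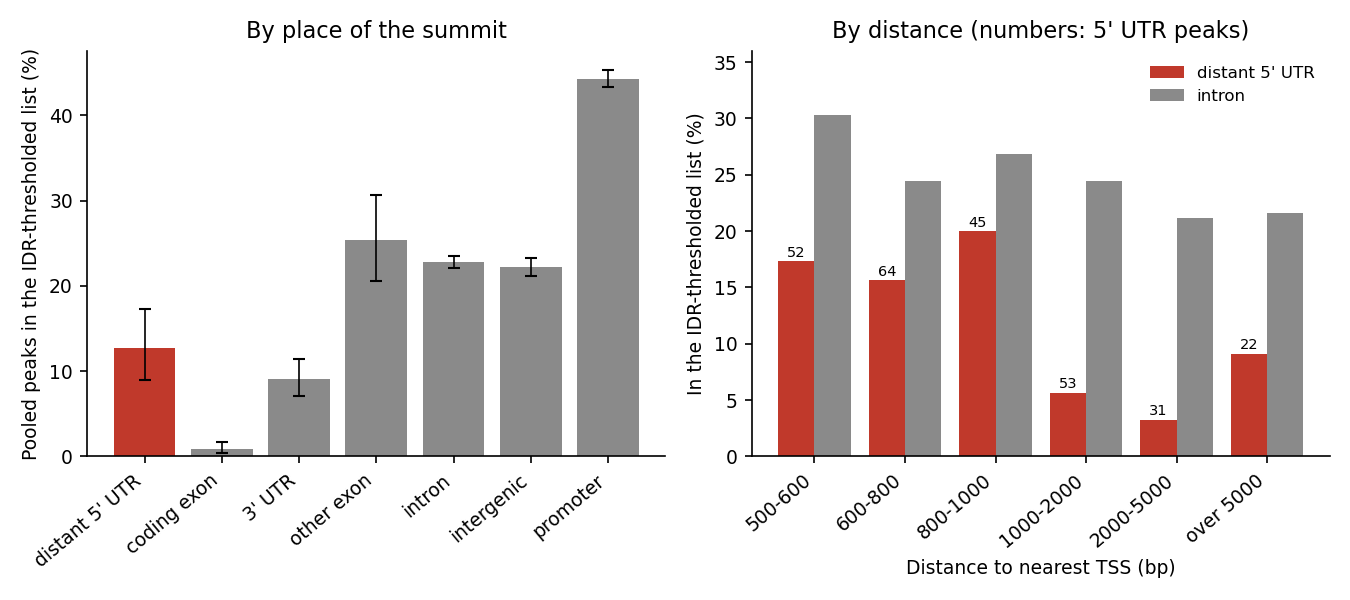
Share of pooled peaks in the IDR-thresholded list (%), by the place of the summit (left, bars with 95% exact binomial intervals) and by distance to the nearest TSS in bp for distant 5′ UTR and intron peaks (right, with the number of 5′ UTR peaks above each bar). Distant 5′ UTRs stood at 12.7%, between 3′ UTRs at 9.05% and intergenic sequence at 22.2%, and were below introns in each of the 6 distance bands.

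Distant 5′ UTR sequence made up 1044 kb, or 0.762% of the chromosome arms. It held 256 pooled peaks per Mb, close to the 231 per Mb of introns and above the 219 per Mb of the arms as a whole. Coding exons held 51.0 per Mb and 3′ UTRs 117 per Mb. For peaks in the IDR-thresholded list the order was different. Distant 5′ UTRs held 32.6 per Mb, against 33.7 between genes, 52.5 in introns, 10.6 in 3′ UTRs and 0.434 in coding exons. Promoters held 234 per Mb and the arms as a whole 62.2 per Mb.

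The strongest peak lay in Raf, the kinase that relays signals from Ras to MAP kinase. It covered X, 2296082 to 2296568, had a signal of 1415 and a summit 842 bp from the nearest TSS, in exon 2 of a 5′ UTR of 1588 nt. Counting 1 as the strongest of 30000, its place was 2181 in the list of replicate 1, 409 in that of replicate 2 and 2511 in that of replicate 3. Replicate 2 placed it far higher than the other two. The next, in Fbl6 (2R, 11289064 to 11289425), had a signal of 1194 and ranked 990, 1179 and 805 in replicates 1 to 3, so all 3 lists placed it in a narrow range. Its summit lay 535 bp from the TSS in exon 1 of a leader of 721 nt.

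A single interval in dos (3L, 2590352 to 2590800) carried 2 summits with signals of 1098 and 231.7, 205 bp apart. The gene encodes an adaptor of receptor tyrosine kinases, and its leader of 1725 nt was crossed by the peak in exon 2, over 1000 bp from the TSS. The overlapping replicate peaks ranked 1184, 972 and 1828. Both summits were credited with the same replicate peaks, and for the second only 1 of the 3 replicates had a summit within 100 bp. The A+T-rich window printed above is that of the first summit.

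Among other hosts of signalling proteins, Ask1, a MAP kinase kinase kinase of stress signalling, had a peak of signal 582.5 that ranked 2286, 3090 and 3717. The peak of otk, a receptor-like pseudokinase, had 314.3 and ranked 4221, 9022 and 3977. The peak of dop, a kinase of the MAST family, had 266.9 and ranked 13548, 7285 and 4259. Ranks of the weaker 2 were thus much further apart than those of Ask1.

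Hosts of transcription factors and their cofactors followed. The peak of cic, an HMG-box repressor that receptor tyrosine kinase signalling relieves, had a signal of 781.8 (3R, 20253174 to 20253477) and ranked 2032, 2752 and 994. Mef2, the MADS-box factor of muscle differentiation, had a peak of 705.3 (2R, 9942854 to 9943102) at 1794 bp from the TSS, which ranked 2834, 3591 and 1138. In ush, a cofactor of GATA factors, the peak had 415.0 and ranked 2893, 5453 and 3000. All 3 were among the 20% strongest peaks of every replicate list.

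Lower signals were found for Pdp1, a clock bZIP factor, with 320.8 and ranks of 1495, 8534 and 7264, and for Ssdp, a cofactor of LIM-domain complexes, with 307.5 and ranks of 4336, 9924 and 6647. In both, replicate 1 placed the peak higher than the other two. The peaks of bun, a TSC22-family protein, cbt, a Krüppel-like factor, and Atf3, a bZIP factor, had 294.9, 271.6 and 258.4. Their ranks ranged from 3600 to 12004.

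Among hosts that act on RNA or transcription, Su(Tpl), the fly ELL elongation factor, had a peak of 456.6 that ranked 5238, 3336 and 8563. Its nearest TSS was that of a noncoding RNA. Unr, an RNA-binding protein of dosage compensation, had a peak of 386.1 in exon 2 of a leader of 3598 nt, 2704 nt before the start codon along the transcript, and ranked 5680, 4395 and 5341. A second Unr peak had 205.5. The peak of spen, an RNA-recognition-motif protein, had 354.5 and ranked 3228, 5434 and 7503. That of DCP2, the mRNA decapping enzyme, had 337.5 and ranked 2742, 7456 and 4726. The Unr ranks differed least among these hosts.

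Hosts of cell polarity and the cytoskeleton were baz and CAP. The polarity protein baz had peaks of 369.2 and 268.5, both in the IDR-thresholded list and both in exon 2 of a leader of 4957 nt, at 6466 and 7270 bp from the nearest TSS. The first ranked 5089, 6960 and 3400, and the second 14713, 6620 and 7786. These were the 2 peaks over 5000 bp from any TSS in that list. CAP, a vinculin-binding adaptor, had a peak of 489.1 that ranked 3894, 4064 and 3987, nearly the same in each replicate.

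The remaining hosts in the IDR-thresholded list were enzymes and genes of varied or unstated role. The peak of eas, an ethanolamine kinase, had 422.3 and ranked 9870, 4493 and 3518. JIL-1, a chromosomal histone kinase, had 346.9 and ranked 2583, 7867 and 4378. Aps, a polyphosphate phosphohydrolase, had 280.0, and Top2, a topoisomerase, had 273.6. The signals of drn, CG15247, firl and CG5966 were 709.4, 697.0, 514.2 and 466.7, and those of CG13784, lbk, CG12054 and CG14073 were 250.9, 246.7, 233.5 and 227.8. In drn the peak ranked 1126, 4112 and 1549. In CG15247 it ranked 1901, 2575 and 2433.

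**Figure D2:**
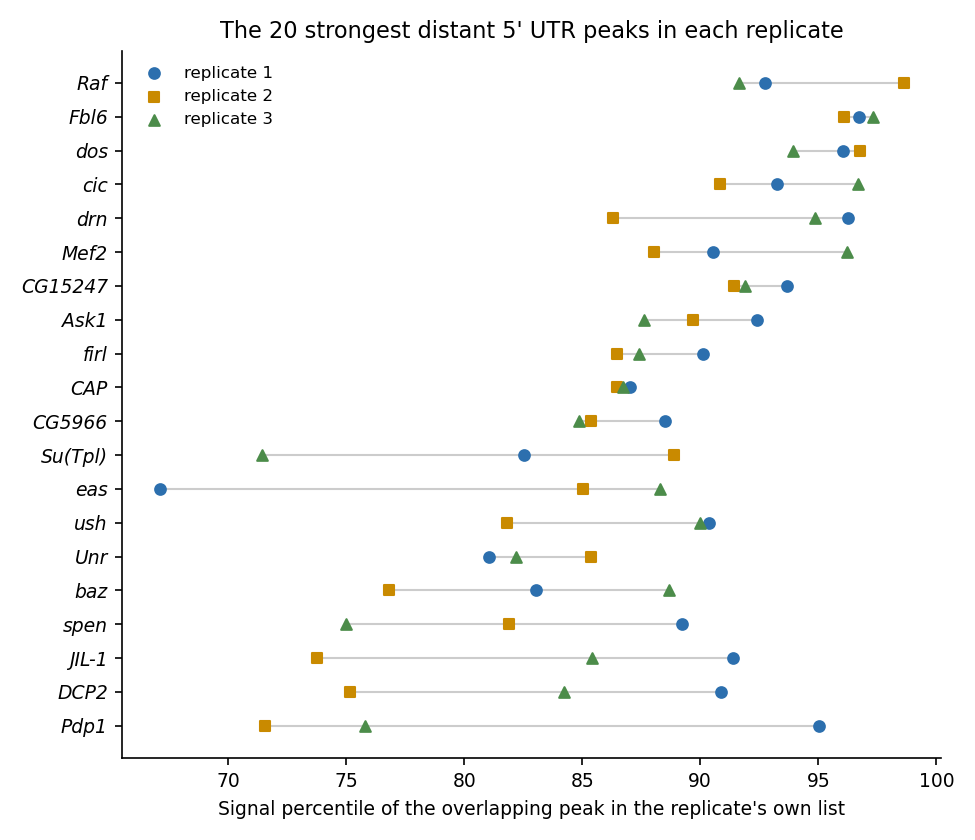
Signal percentile of the overlapping peak in each replicate's own list (horizontal, 100 is the strongest) for the 20 strongest distant 5′ UTR peaks, ordered by pooled signal with their host genes. All points lie between the 67.1 of eas in replicate 1 and the 98.6 of Raf in replicate 2, and the replicates spread more widely toward the bottom.

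Most of the peaks lay close behind the 500 bp limit. The distance from the summit to the nearest TSS had a median of 864 bp and ranged from 502 to 14080 bp. It was at most 1000 bp for 161 peaks and over 5000 bp for 22. The nearest TSS belonged to the host itself for 248 peaks and to another gene for 19. The summit was downstream of that TSS for 238 and upstream for 29. Just inside the limit were rudhira at 502 bp with a signal of 72.8, JIL-1 at 503 bp with 346.9 and hfp at 507 bp with 70.8. Just outside it were summits of Orai at 497 bp with 49.6, sd at 492 bp with 185.7 and Hsp22 at 489 bp with 707.0. Weak and strong summits thus stood on both sides of the limit.

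The share in the IDR-thresholded list was lower beyond 1000 bp, where 5.66% of 106 peaks were in it. Between 500 and 600 bp it was 17.3% in distant 5′ UTRs, against 30.3% in introns at the same distance. From 600 to 800 bp the share was 15.6% in distant 5′ UTRs and 24.4% in introns, and from 800 to 1000 bp it was 20% in distant 5′ UTRs and 26.8% in introns. From 1000 to 2000 bp it was 5.66% in distant 5′ UTRs and 24.4% in introns. From 2000 to 5000 bp distant 5′ UTRs had 3.23% and introns 21.2%, and beyond 5000 bp distant 5′ UTRs had 9.09% and introns 21.6%. The last 3 shares of distant 5′ UTRs rest on 3, 1 and 2 peaks, and the last 2 bands hold 31 and 22 peaks. Over 500 to 2000 bp together, 14.5% of 214 distant 5′ UTR peaks were in the list, against 25.3% of 4325 intron peaks.

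**Figure D3:**
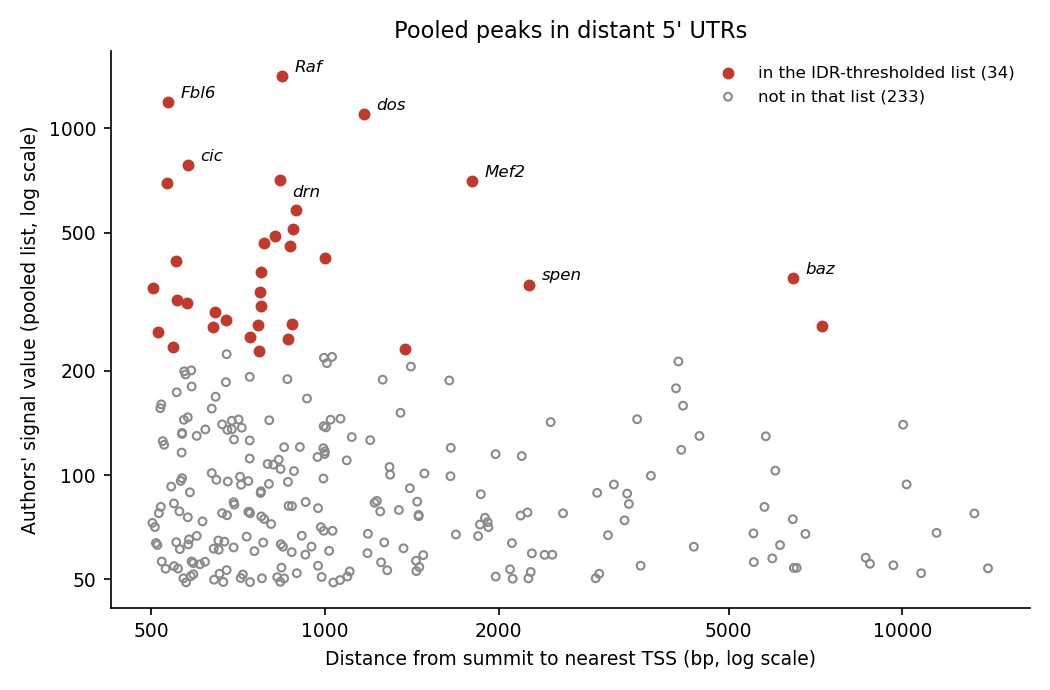
Distance from summit to nearest TSS (bp, log scale) against the authors' signal in the pooled list (log scale) for the 267 peaks, with those in the IDR-thresholded list filled. Most filled points lie within 1000 bp of a TSS, and Mef2, spen, dos and baz are the labelled ones beyond it.

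The farthest peaks had low pooled signals. In dnc, the cAMP phosphodiesterase gene, 2 peaks lay 14080 and 13338 bp from a TSS with signals of 53.8 and 77.5, and replicate 3 overlapped neither. The peak of kek6, a leucine-rich repeat receptor, lay at 11470 bp with 68.1 and was overlapped in replicate 2 only. In InR, the insulin receptor, a peak of 52.1 lay at 10784 bp. It was overlapped in all 3 replicates, by peaks ranked 9548, 8100 and 8755, but a stronger pooled summit lay 219 bp away and only 1 replicate had a summit within 100 bp. That of numb, an inhibitor of Notch signalling, lay at 10176 bp with 94.0 and was overlapped in replicates 1 and 3. None of these 5 was in the IDR-thresholded list.

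The leaders themselves were long. The longest 5′ UTR around each summit had a median spliced length of 1128 nt, from 155 nt in cGlr2 to 4967 nt in rg. The cGlr2 peak was also the weakest of all, with a signal of 49.0, and was overlapped in replicate 2 only. Along the spliced transcript the summit lay a median of 703 nt from the host TSS and 339 nt from the start codon. It fell in exon 1 for 134 peaks, in exon 2 for 116 and in a later exon for 17. For 102 of the 267 peaks the summit was within 100 bp of an edge of its 5′ UTR exon. Where all 3 replicates overlapped a peak, their summits spanned a median of 123 bp. Near such an edge, placement in the 5′ UTR is therefore uncertain. The peak in the rg leader, which is shared with CG15465, had a signal of 99.6 and ranked 22934, 16111 and 21612. That in the leader shared by Pif1A and Pif1B, of 4327 nt, had 73.1. The 3930 nt leader of spen held 3 peaks with signals of 354.5, 142.2 and 82.5, so among the longest leaders both strong and weak peaks occurred.

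The same base can be 5′ UTR in 1 transcript and intron or coding exon in another. The summit was also intronic in another transcript of the host for 131 peaks. Of these 19.1% were in the IDR-thresholded list, with a median signal of 96.9, against 6.62% and 77.6 for the other 136. Only 16 summits were also in a coding exon of another transcript. None of these was in the IDR-thresholded list and their highest signal was 200.4. In first exons 14.9% of 134 peaks were in that list, and in later exons 10.5% of 133. The peak interval was 440 bp wide for 243 of the 267 peaks, a shared width rather than an extent measured for each. The interval was wholly 5′ UTR for 109 peaks and under 50% 5′ UTR for 32, so many intervals also covered other sequence. How much of that was intron and how much coding exon was not measured.

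A host held 1 such peak in 196 cases, 2 in 27, 3 in 4 and 4 in 2. The 4 peaks of CAP had signals of 489.1, 199.2, 144.4 and 84.2 and were spread over 27955 bp. Those of ftz-f1, a nuclear receptor of the moulting cascade, had 125.9, 125.3, 60.5 and 58.9 within 1952 bp. In ths, which encodes an FGF ligand, the 3 peaks had 187.5, 66.7 and 58.9. In eas the 3 had 422.3, 126.1 and 51.0, and the third baz peak had 129.7. Both ftz-f1 and ths lacked a peak in the IDR-thresholded list. Close summits can overlap the same replicate peak. The first 2 peaks of eas, for instance, were both credited with the replicate peaks ranked 9870, 4493 and 3518. A stronger pooled summit lay within 500 bp of 52 of the 267 peaks, or 19.5%, against 17.2% of all pooled peaks, and it was a promoter summit for 11.

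Hosts were compared with the 2886 protein-coding genes that have 5′ UTR sequence over 500 bp from any TSS and could therefore hold a peak, of which 7.93% did. The median length of the longest leader was 1095 nt in the 229 hosts, against 602 nt in the other 2657 genes. The median amount of distant 5′ UTR was 683 bp in hosts and 174 bp in the others. A host needs room for a peak, and the share of genes that were hosts was higher with more room. It was 0.427% where a gene had at most 100 bp of distant 5′ UTR, 3.23% from 100 to 250 bp, 9.44% from 250 to 500 bp, 18.4% from 500 to 1000 bp and 29.8% above. Per 100 kb of distant 5′ UTR the number of peaks in these bands was 10.5, 19.2, 27.1, 30.5 and 23.0, so beyond 250 bp it varied little.

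Of 14 genes with a well-studied leader that could hold a peak, 6 did, which is 42.9%, against 7.93% of all such genes. These shares are not matched for room. The 14 genes had 12.0 kb of distant 5′ UTR together, and among all genes with 500 to 1000 bp 18.4% were hosts, and above 1000 bp 29.8%. Per 100 kb of distant 5′ UTR that list had 66.4 peaks, against 25.1 for all such genes. The 6 genes rest on 8 peaks, none in the IDR-thresholded list. EcR, the ecdysone receptor, had a peak of 189.1 that ranked 10060, 9346 and 15699. Lk6, a kinase of translation initiation factors, had 137.0 and ranked 7517, 25360 and 14455. The peaks of chinmo, a temporal identity factor, had 113.5 and 75.3, and Kr-h1, a juvenile hormone response factor, had 92.7 with no overlapping peak in replicate 1. Sxl, the sex determination switch, had 77.6, also with none in replicate 1, and InR had 54.9 and 52.1. The replicate peaks overlapping the first InR peak ranked 6199, 8192 and 2898. A stronger pooled summit lay 239 bp from it, and only 1 replicate had a summit within 100 bp of it. The weaker chinmo peak also had a stronger pooled summit, 299 bp away.

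The other gene lists were broader but incomplete. The hosts dos, Ask1, otk, dop, cic, Unr, DCP2 and CAP, each with a peak in the IDR-thresholded list, were in none of them. The counts below therefore describe the listed genes only. Of 117 transcription factor genes that could hold a peak 22 did, or 18.8%, with 39.6 peaks per 100 kb and 5 hosts in the IDR-thresholded list, namely Mef2, ush, Pdp1, cbt and Atf3. Of 98 signalling genes 17 did, or 17.3%, with 47.8 peaks per 100 kb, and Raf was the only one of them in the IDR-thresholded list. Of 40 genes of RNA binding and translation 8 did, or 20%, with 38.5 per 100 kb. Of 78 neural, adhesion, channel and cytoskeletal genes 6 did, or 7.69%, with 15.2 per 100 kb. The hosts in the IDR-thresholded list were spen among the 40 genes and baz, with 2 peaks, among the 78. Lists overlap, Lk6 being in 3 of the 5, and their shares of hosts are descriptions that are not matched for room.

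Replicate support was below that of the whole list. Only at the loosest overlap was it close to that of other peaks away from promoters. At an overlap of at least 1 bp, 145 of the 267 peaks, or 54.3%, were matched in all 3 replicate lists, against 61.4% of all pooled peaks. The share was 53.7% for the other peaks over 500 bp from a TSS and 77.8% at promoters. Another 74 were matched in 2 lists, 42 in 1, and 6 in none. Those 6, named after their values were seen, lay in Cph, RhoGEF64C, Tet, sea, svr and Sod3. Replicate 1 matched 75.3%, replicate 2 77.5% and replicate 3 81.3%, a mean of 78.0% ± 3.03 (SD, n = 3), against 81.5% ± 2.96 for all pooled peaks. Of the 233 peaks outside the IDR-thresholded list 111, or 47.6%, were matched in all 3. All 34 in that list were matched in all 3, and 20 of them were also among the strongest peaks of every replicate, taking as many peaks from each as that list holds. The same shares over all pooled peaks outside and inside the list are not given here. The IDR is meant to keep peaks that replicates rank alike, so the full match of the 34 is no separate support for them. When a replicate summit had to lie within 100 bp, 24.0% of the 267 were matched in all 3, against 37.3% of all pooled peaks. By that criterion distant 5′ UTRs were below introns at 34.3% and intergenic sequence at 33.8%. They were above 3′ UTRs at 18.8% and coding exons at 3.51%.

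Each replicate's own list was then classed by the same rule, independently of the pooled summits. It placed 308, 245 and 332 summits of replicates 1, 2 and 3 in distant 5′ UTRs, a mean of 295 ± 44.9 (SD, n = 3). Their median signal percentile within the list was 38.5, 36.2 and 42.2, against 50.1, 50.2 and 50.1 for all other summits. The difference was −11.6, −14.0 and −7.93 percentile points, a mean of −11.2 ± 3.03 (SD, n = 3), lower in 3 of 3 replicates (two-sided exact sign-flip permutation test, p = 0.25, the smallest that 3 replicates allow). Against only those other summits over 500 bp from a TSS, the difference was −3.56, −7.13 and −0.272, a mean of −3.65 ± 3.43 (SD, n = 3, same exact test, p = 0.25). In replicate 3 the 2 sets hardly differed, and the SD is nearly as large as the mean.

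**Figure D4:**
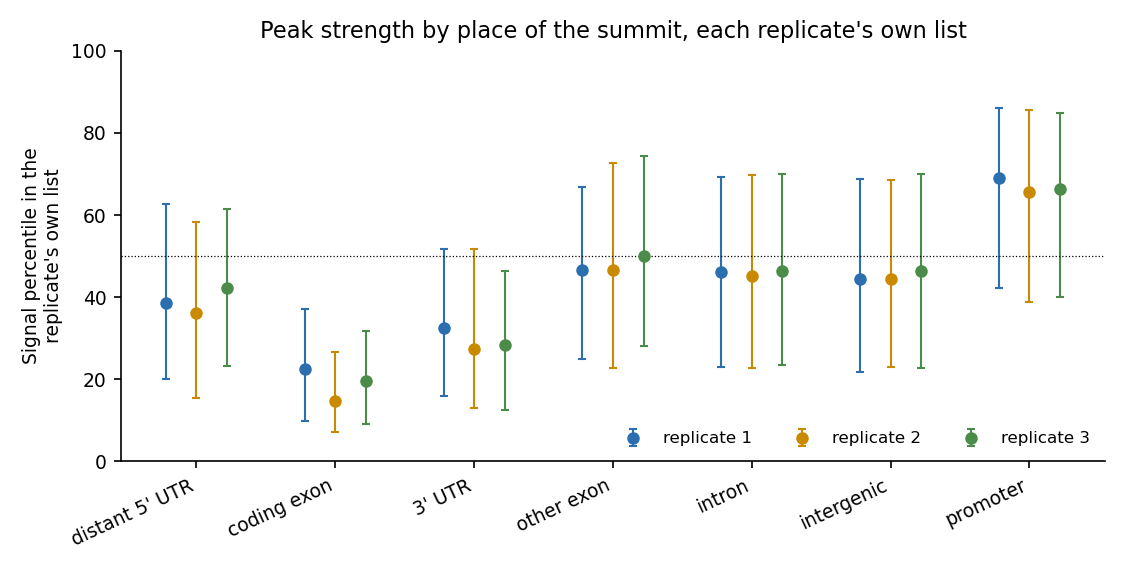
Median signal percentile within each replicate's own list (points) with quartiles (bars), by the place of the summit, for replicates 1 to 3; the dotted line is the 50th percentile. Distant 5′ UTR summits had medians of 38.5, 36.2 and 42.2, above coding exons and 3′ UTRs and below introns in each replicate.

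Among the strongest peaks of its own list, again as many as the IDR-thresholded list holds, each replicate had 14.9%, 12.7% and 13.9% of its distant 5′ UTR summits, a mean of 13.8% ± 1.14 (SD, n = 3), while 28.4% of all its peaks are there by construction. Hosts were counted in each list separately. In all, 78 genes were hosts in all 3 replicate lists, and 74 of the 229 pooled hosts were. Of the 32 hosts of peaks in the IDR-thresholded list 25 were. The pooled list comes from the same alignments, so this overlap is partly built in.

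Summits in the list as a whole were richer in A+T than their flanks, whereas those in distant 5′ UTRs, like those in coding exons, were not. In windows of 50 bp to either side of the summit, A+T was 57.3% for the 267 peaks, against 57.5% in flanks centred 500 bp away, a difference of −0.204 percentage points. For all other pooled peaks the difference from their flanks was 6.45 points. By class it was −6.34 in coding exons, 5.18 in 3′ UTRs, 6.21 in introns and 7.495 between genes, so the absence of a rise was not particular to 5′ UTRs. Among the distant 5′ UTR peaks it was 1.84 points for the 131 whose summit is also intronic in another host transcript and −2.17 for the other 136. The 34 peaks in the IDR-thresholded list had 60.9%, against 57.7% in their flanks, a difference of 3.26 points, and the other 233 had −0.710 points. Distant 5′ UTR sequence overall had 54.7% A+T in windows of the same size, below the 57.3% at the 267 summits. Intron summits had 63.9%, against 60.3% over intron sequence away from TSSs, and intergenic summits 64.8%, against 59.3%. Summits in 3′ UTRs had 64.5%, against 64.8%, despite their rise over flanks. Against sequence of their own class, distant 5′ UTR summits were thus higher in A+T, as intron summits were. Coding exon summits had 46.0%, against 46.6% over all coding exon sequence away from TSSs. The likeness to coding exons thus holds for the flanks only.

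In the replicates' own lists the difference between distant 5′ UTR summits and their flanks was −0.913, 0.544 and −0.763 points, a mean of −0.378 ± 0.801 (SD, n = 3; two-sided exact sign-flip permutation test, p = 0.5). For all other summits it was 4.30, 7.33 and 4.48 points, a mean of 5.37 ± 1.70 (SD, n = 3). The difference between the 2 sets was −5.75 ± 0.903 points (SD, n = 3), lower in distant 5′ UTRs in 3 of 3 replicates (exact, p = 0.25, the smallest possible). Flanks can lie outside the 5′ UTR, and A+T was 54.3% over all distant 5′ UTR sequence and 60.3% over introns; the part of this in the result was not tested. Against the rest of the same exon, the window was higher by 0.748 points in the replicate mean, and higher in 3 of 3 replicates (same exact test, p = 0.25, the smallest possible).

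Single strong peaks departed from this average in both directions. The dos window had 80.2% A+T, against 55.9% in its flanks, the firl window 82.2% against 58.9%, and the CG15247 window 79.2% against 42.1%. Mef2 had 43.6% against 68.8%, JIL-1 44.6% against 67.3%, and Fbl6 50.5% against 62.4%. Strong distant 5′ UTR peaks thus included both A+T-rich and G+C-rich summits.

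**Figure D5:**
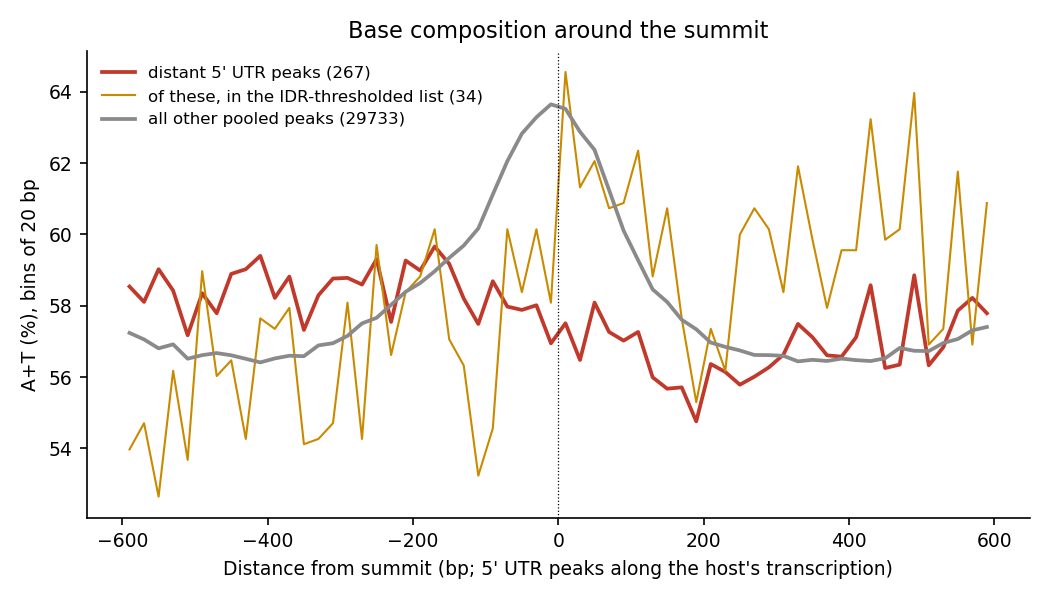
A+T content (%) in bins of 20 bp by distance from the summit (bp; along the host's direction of transcription for the 5′ UTR peaks, along the assembly for the others). All other pooled peaks form a maximum at the summit, the 267 distant 5′ UTR peaks show none, and the 34 in the IDR-thresholded list, few and noisy, have 60.9% A+T in the central window.

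The summit windows were searched on both strands for 11 words, and matches are descriptions of letters only. GAGAG was in 62 of the 267 windows, or 23.2%, against 10.8% of all pooled windows and 10.5% of those over 500 bp from a TSS and outside 5′ UTRs. Windows placed every 25 bp over all distant 5′ UTRs held it in 14.4%, so the leaders themselves were somewhat richer in it. In the replicates' own lists it was under 24.7%, 21.6% and 20.5% of distant 5′ UTR summits, against 12.1%, 10.03% and 12.2% of other summits. The mean difference was 10.8 ± 2.26 points (SD, n = 3), higher in 3 of 3 replicates (two-sided exact sign-flip permutation test, p = 0.25, the smallest possible). That comparison was with other summits and not with distant 5′ UTR windows. GAGAG was in 7 of the 34 windows of the IDR-thresholded list, or 20.6%, against 8.03% of all peaks there and 14.4% of distant 5′ UTR windows. The longest run of it printed above is that of the third baz peak.

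CACACACA repeats were in 4.87% of the windows, against 2.24% of all pooled and 3.44% of distant 5′ UTR windows. Across replicates they were in 6.32% of distant 5′ UTR summits on average, against 2.46% of other summits, a difference of 3.86 ± 1.69 points (SD, n = 3, exact sign-flip p = 0.25). TTTAAA went the other way, with 6.74% against 16.2% of all pooled windows. It was in 6.17% of distant 5′ UTR windows, so these summits were close to the leaders as a whole. Its replicate mean was 6.25%, against 15.3% of other summits, a difference of −9.04 ± 2.07 points (SD, n = 3, exact sign-flip p = 0.25). Both differences had the same sign in all 3 replicates. CGATA, the short BEAF-32 word, was in 10.9% of the windows, against 13.7% of all pooled and 12.3% of distant 5′ UTR windows.

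The other words were in few windows. TATCGATA, bound by DREF and containing CGATA, was in 1, or 0.375%, against 1.25% of all pooled and 0.182% of distant 5′ UTR windows. CATCNCTA was in 3, or 1.12%, against 0.993% of all pooled and 0.539% of distant 5′ UTR windows. TGACTCA, the AP-1 word, was in 1, or 0.375%, against 0.897% of all pooled and 0.616% of distant 5′ UTR windows. CATATG, an E-box, was in 6, or 2.25%, against 3.70% of all pooled and 1.75% of distant 5′ UTR windows. GGTCACACT, TAGGTAG and CAGGTAG were in 0 windows, against 0.707%, 0.433% and 0.387% of all pooled windows and 0.0431%, 0.239% and 0.484% of distant 5′ UTR windows. A count of 0 of 267 allows a share of up to 1.12% (3 counts, counting error only), above each of these shares. The windows below show the matches of the rarer words, with the match in capitals.
Hr4 (chrX:1942766-1942795, plus strand): gccaccaccatTATCGATAtccgtatcgct
JIL-1 (chr3L:11092386-11092415, minus strand): tcagtgttgcaCATCGCTAccgccccacgc
Coq4 (chr3L:17431230-17431259, minus strand): tcatcactcaaCATCACTAtgtaaaaagct
Pka-C1 (chr2L:9697574-9697603, minus strand): cttccgtttgtCATCGCTAacgggcaccat
Pak3 (chr3R:16453101-16453130, minus strand): tgcatgtgtttaTGACTCAcggctggttca
Of these only the JIL-1 peak was in the IDR-thresholded list. The Hr4 peak, with a signal of 49.2, was among the weakest and was overlapped in replicate 1 only. Coq4 had 114.9, Pka-C1 67.4 and Pak3 185.3.

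By arm, the 267 peaks were 41 on 2L, 56 on 2R, 53 on 3L, 45 on 3R and 72 on X, with 0 on chromosome 4. Those in the IDR-thresholded list were 7, 5, 10, 5 and 7 in the same order. The shares of all pooled peaks and of distant 5′ UTR sequence on each arm are not given here. These counts therefore do not show whether an arm held more peaks than its share.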

How the data were processed

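The peak lists of 3 biological replicates, their pooled list and the list thresholded by IDR were used as deposited, on dm6. Signal values are the authors' own per peak; per the deposited file lists, replicates were called against 1 shared control and the pooled list on all 3 alignments. Aligner, peak caller and read depth: not given in the sources used here. Each list other than the thresholded one held 30000 peaks. The deposited signal served only to rank, filter or describe peaks within a list.

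Summits were placed on the Ensembl release 115 annotation without transposable elements and pseudogenes; sequence came from the Release 6 assembly. Python 3.11.15, numpy 2.4.6, pandas 2.3.3 and scipy 1.17.1 were used. The placement rule was checked against a slow version on single positions drawn in long 5′ UTR exons and at random on 2L and X. That check did not cover the overlap of intervals. Peaks overlapped at 1 bp or more. Intervals are exact Clopper-Pearson at 95%. Replicates were tested by a two-sided exact sign-flip permutation, which cannot go below p = 0.25. Nothing in the labels ties the replicates to separate collections beyond calling them biological, so their spread may be partly technical. Named genes were the hosts of the 20 strongest, 5 farthest and 5 longest-leader peaks, hosts with at least 3 peaks, those in the IDR-thresholded list or the leader list, the weakest, and the 3 on either side of 500 bp. Hosts named for a word were added after their values were seen. Members, lists and words were chosen with earlier results of these data known.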

Additional observations from a re-analysis of the deposited data

How the results depend on the processing

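Of 51 alternatives, 35 kept a count within 1.5 times, a value within its interval or, for the tested differences, the sign only. Among the last, the signal difference was −3.65 percentile points against other summits over 500 bp from a TSS, and the A+T difference was −0.0393 points with flanks 250 bp away (exact permutation p = 1). The number of peaks was 436 beyond 250 bp from a TSS, 106 beyond 1000 bp, 136 without summits that are intronic in another host transcript, and 97 in the stronger 50% of the pooled list. Beyond 1000 bp, 5.66% were in the IDR-thresholded list, the median signal was 76.6 and 44.3% were matched in all 3 replicates. Without intron-sharing summits the first 2 values were 6.62% and 77.6. The share matched in all 3 replicates was 29.2% at a reciprocal overlap of at least 50% (38.0% of all pooled peaks), 24.0% with summits within 100 bp (37.3%), and 10.9% among the strongest peaks of each replicate, as many as the IDR-thresholded list holds (23.1%). Leaving out each replicate in turn gave 61.4% to 64.8%, since fewer lists had to match. The A+T difference changed sign, to 0.748 points, against the rest of the same exon; that alternative changes what the window is set against. Leaving out each replicate gave −0.838 to −0.110 for that difference, −12.8 to −9.76 percentile points for the signal and 9.95 to 12.1 points for GAGAG. With other windows, limits or comparison summits the GAGAG difference was 6.57 to 14.8 points; these settings, and leaving out the 52 peaks beside a stronger summit, which gave 15.3% in the IDR-thresholded list, were chosen after seeing the data. No paired analysis was possible because there is only 1 group; the differences within replicates are between sets of summits of the same list. Read depth is unknown, so weak and undetected peaks cannot be told apart.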
